A study of Mus musculus with 7 samples.

Results

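The prolactin receptor and its closest relatives form the class I cytokine receptor family, and 10 genes of this family were followed in pancreatic islets of pregnant mice: Prlr, Ghr, Epor, Lepr, Il4ra, Il2rg, Il6ra, Il6st, Lifr and Osmr. They were found by looking up each gene symbol in the annotation of the array's probe sets. Of the 10 genes, 8 had a probe set with that symbol, 1 each, among 19938 genes tested. No probe set was annotated with Prlr, alone or with other symbols, and none with Il2rg, so neither gene was analysed here. The genotype labels could therefore not be checked against the level of the targeted gene. Islets came from 4 PrlR+/- mice, which carry a null allele of the prolactin receptor gene beside an intact one, and from 3 PrlR+/+ mice with both alleles intact. All were females of the C57BL/6 strain background, mated at 12 to 16 weeks of age and killed on day 15 of pregnancy. The islets of each mouse were hybridised to a separate Affymetrix array. Which part of the receptor gene the null allele lacks is not given in the sources used here, and the labels name no tissue-specific driver.

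Class I cytokine receptors are cell-surface proteins without a kinase of their own. Binding of a hormone or cytokine brings receptor chains together and activates JAK kinases held on their inner tails, which then phosphorylate STAT transcription factors. Prlr, Ghr and Epor bind prolactin and placental lactogens, growth hormone and erythropoietin as pairs of like chains and work mainly through Jak2 and STAT5, and Lepr binds leptin and works through Jak2 and STAT3. Il6ra, Lifr and Osmr belong with Il6st, the shared signalling chain gp130, and work largely through STAT3. Il4ra pairs with the common gamma chain encoded by Il2rg, or with Il13ra1, and works through STAT6. In pregnancy, prolactin and placental lactogens are known to act on the islet's beta cells through Prlr, which raises beta cell number and insulin secretion, and growth hormone acts on the same cells through Ghr.

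Promoter sequences are shown for Prlr as the targeted gene and for Ghr and Il6ra because these receptors varied together from mouse to mouse (below). RefSeq (build GRCm38.p6) had 15 promoter windows for the 10 genes, each from 250 bases before to 50 bases after an annotated start. The STAT core TTCNNNGAA, searched on both strands, was present in 1 of the 15, a Prlr window, and in 8.3% of all 32851 mouse windows. The 250 bases before the start are printed 5′ to 3′ on the gene's strand, with the STAT core in capitals. They are the Prlr window on the plus strand of chr15:10223656-10223905, the Ghr window on the minus strand of chr15:3583353-3583602 and the Il6ra window on the minus strand of chr3:89913197-89913446.
Prlr: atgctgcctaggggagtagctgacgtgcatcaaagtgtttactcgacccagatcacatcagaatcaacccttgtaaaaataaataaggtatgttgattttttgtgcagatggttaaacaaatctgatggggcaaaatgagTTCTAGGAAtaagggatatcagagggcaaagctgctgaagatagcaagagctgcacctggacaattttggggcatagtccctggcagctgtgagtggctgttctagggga
Ghr: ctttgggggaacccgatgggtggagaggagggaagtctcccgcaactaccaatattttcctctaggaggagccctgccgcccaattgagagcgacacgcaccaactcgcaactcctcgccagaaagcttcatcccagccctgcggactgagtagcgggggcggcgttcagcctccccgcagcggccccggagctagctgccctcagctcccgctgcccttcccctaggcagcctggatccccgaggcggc
Il6ra: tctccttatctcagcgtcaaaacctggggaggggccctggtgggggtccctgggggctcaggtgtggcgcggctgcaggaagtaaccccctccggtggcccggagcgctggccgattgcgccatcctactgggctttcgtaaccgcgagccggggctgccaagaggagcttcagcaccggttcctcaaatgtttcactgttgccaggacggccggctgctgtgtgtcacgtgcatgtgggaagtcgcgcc
The Ghr and Il6ra windows shown hold no such core. Over the full windows, G and C make up 67.0% and 66.0% of these, against 45.7% in the Prlr window shown. The other Prlr windows hold 49.3% and 35.3%, and the other Ghr window holds 52.3%. A motif match describes the letters and not a bound site.

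Setting PrlR+/- islets against PrlR+/+ islets asked whether the loss of a prolactin receptor allele goes with another level of the related receptors. No receptor passed the test. With limma over all 19938 genes, 0 of the 8 receptors had an adjusted p under 0.05, as did 0% of all genes, and the smallest adjusted p over all genes was 0.99. The groups overlapped for all 8 receptors, whereas they did not overlap for 2.24% of all genes. At an unadjusted p under 0.05 there were 0 of 8 receptors and 438 genes, or 2.2%. The median difference of the 8 was -0.022 on the log2 scale, with 2 higher and 6 lower, against a median of 0.014 over all genes, of which 55.7% were higher. The median of the 8 had no settled direction: it was 0.056 without PrlR+/+ 2, -0.069 without PrlR+/+ 1 and 0.012 with array weights. In the following, values are the deposited log2 values of a probe set and differences are PrlR+/- minus PrlR+/+. Values of different probe sets depend on their probes, so the place of a receptor among all genes describes array signal and not the number of transcripts. In whole islets, fewer cells of a type and less RNA per cell cannot be told apart.

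**Figure D1:**
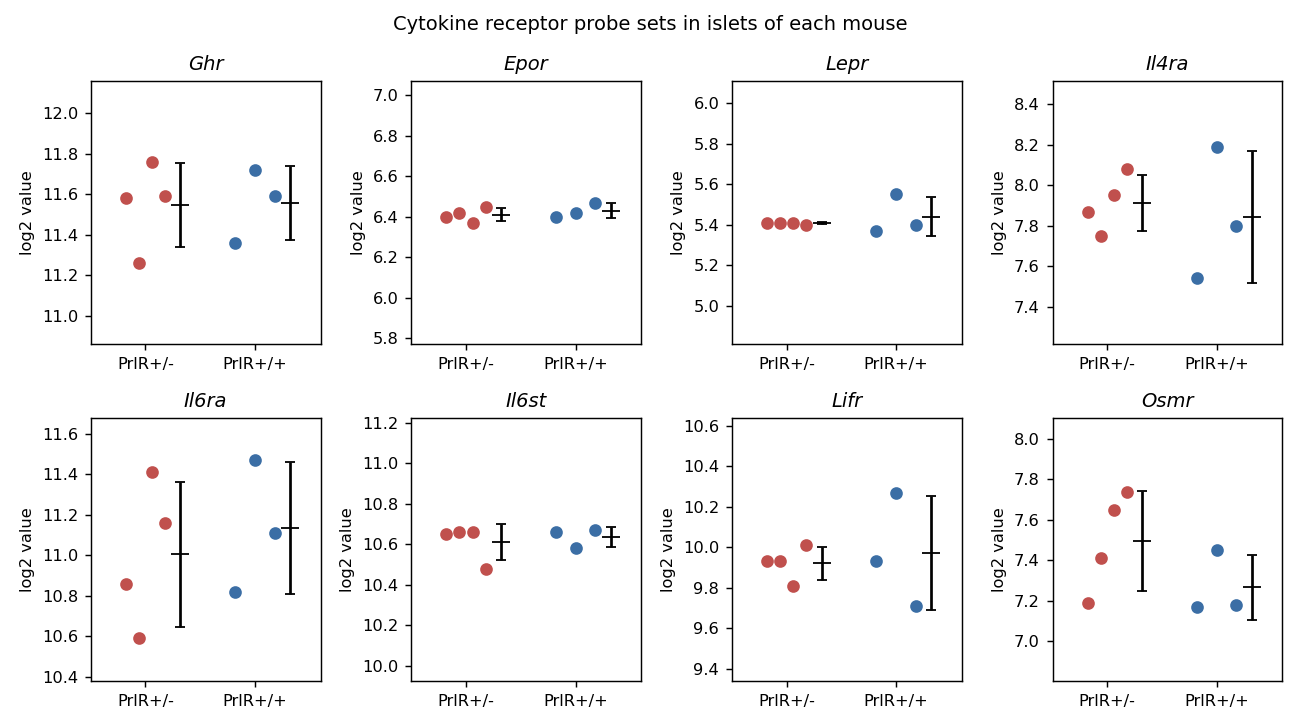
Deposited log2 values of the 8 measured receptors, a panel each with a vertical span of the same size. Points are mice, and the black mark and bar beside them are the group mean and SD (PrlR+/-, n = 4; PrlR+/+, n = 3). The groups overlap in every panel, and Il6ra spreads most widely, from 10.59 to 11.47.

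Ghr, the growth hormone receptor, gave the brightest signal of the 8. Its values were 11.58, 11.26, 11.76 and 11.59 in PrlR+/- 1 to 4, against 11.36, 11.72 and 11.59 in PrlR+/+ 1 to 3. Both groups held a low mouse and a high mouse, and 1 value, 11.59, occurred in both. The PrlR+/- mean was 11.55 ± 0.21 (SD, n = 4) and the PrlR+/+ mean 11.56 ± 0.18 (SD, n = 3), a difference of -0.01 ± 0.13 (SE). Its 95% interval ran from -0.32 to 0.31, or from 0.799-fold to 1.236-fold. A change in Ghr beyond about these folds was thus outside the interval, while smaller ones lay within it. The interval is for Ghr alone and does not give the smallest change that the test over all genes could have called. The Ghr signal lay at percentile 97.9 of all genes.

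Epor, the erythropoietin receptor of red blood cell precursors, varied least. It read 6.40, 6.42, 6.37 and 6.45 in PrlR+/- and 6.40, 6.42 and 6.47 in PrlR+/+ mice. All 7 mice lay within 0.10, and the within-group spread was at percentile 3.3 of all genes. The difference was -0.02 ± 0.05 (SE), with an interval from 0.905-fold to 1.075-fold. The signal was at percentile 36.5, and of the red blood cell genes measured, Klf1 (0.09 ± 0.08, SE) and Alas2 (0.04 ± 0.09) did not pass either. Detection calls were not used here, so it cannot be said whether a value this low stands above background.

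Lepr, the leptin receptor, gave the dimmest signal, at percentile 20.9. Its values were 5.41, 5.41, 5.41 and 5.40 in PrlR+/- against 5.37, 5.55 and 5.40 in PrlR+/+ mice. PrlR+/+ 2 alone stood apart, and the other 6 mice lay between 5.37 and 5.41. The difference was -0.03 ± 0.06 (SE), with an interval from 0.885-fold to 1.081-fold, and it was 0.022 without PrlR+/+ 2. A value so low and so flat may not follow the transcript. Leprot, which is known to restrain the surface level of the leptin receptor, averaged 8.10 in PrlR+/- and 8.16 in PrlR+/+ islets (-0.05 ± 0.17, SE).

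Il4ra, which binds interleukin 4, had values of 7.87, 7.75, 7.95 and 8.08 in PrlR+/- against 7.54, 8.19 and 7.80 in PrlR+/+ mice. The PrlR+/+ mice held both the lowest and the highest value. The difference was 0.07 ± 0.15 (SE), with an interval from 0.816-fold to 1.349-fold. It was 0.242 without PrlR+/+ 2 and -0.083 without PrlR+/+ 1. Il13ra1, its partner chain for interleukins 4 and 13, read 10.36, 9.87, 10.49 and 10.42 in PrlR+/- against 10.38, 10.65 and 10.47 in PrlR+/+ mice (-0.21 ± 0.16, SE). Of the 7 genes known to be induced by STAT6 in macrophages, 6 were higher and 0 passed, with a median difference of 0.070. The 2 of smallest p, Chil3 (0.26 ± 0.13, SE) and Mgl2 (0.19 ± 0.16), were at percentiles under 18, near the floor of the array.

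Il6ra, the binding chain for interleukin 6, varied most among the 8. It read 10.86, 10.59, 11.41 and 11.16 in PrlR+/- against 10.82, 11.47 and 11.11 in PrlR+/+ mice. The lowest and the highest mouse were 0.88 apart, or 1.84-fold, and each group spanned most of that range. The within-group spread was at percentile 95.3 of all genes. The PrlR+/- mean was 11.01 ± 0.36 (SD, n = 4) and the PrlR+/+ mean 11.13 ± 0.33 (SD, n = 3), and the difference was -0.13 ± 0.22 (SE). Its interval, from 0.637-fold to 1.313-fold, is the widest of the 8 receptors. The difference was -0.285 without PrlR+/+ 1 and 0.040 without PrlR+/+ 2. Adam10 and Adam17, proteases that release the outer part of the receptor from the cell, differed by -0.13 ± 0.08 and -0.12 ± 0.12 (SE).

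Il6st, the shared chain gp130, was nearly flat. Its values were 10.65, 10.66, 10.66 and 10.48 in PrlR+/- against 10.66, 10.58 and 10.67 in PrlR+/+ mice. PrlR+/- 4 was the lowest, PrlR+/+ 2 the next, and the other 5 mice agreed within 0.02. The difference was -0.02 ± 0.07 (SE), with an interval from 0.881-fold to 1.097-fold.

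Lifr, the receptor for leukaemia inhibitory factor, had values of 9.93, 9.93, 9.81 and 10.01 in PrlR+/- against 9.93, 10.27 and 9.71 in PrlR+/+ mice. As for Il4ra, the extremes were both PrlR+/+ mice. The difference was -0.05 ± 0.13 (SE), with an interval from 0.784-fold to 1.191-fold, and it was 0.100 without PrlR+/+ 2 and -0.180 without PrlR+/+ 3.

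Osmr, which completes the oncostatin M receptor, had the largest difference and the smallest p of the 8, and it did not pass. Its values were 7.19, 7.41, 7.65 and 7.74 in PrlR+/- against 7.17, 7.45 and 7.18 in PrlR+/+ mice. PrlR+/- 3 and 4 lay above every PrlR+/+ mouse, while PrlR+/- 1 and 2 lay below PrlR+/+ 2. The PrlR+/- mean was 7.50 ± 0.25 (SD, n = 4) and the PrlR+/+ mean 7.27 ± 0.16 (SD, n = 3), a difference of 0.23 ± 0.14 (SE), or 1.173-fold with an interval from 0.928-fold to 1.485-fold. limma gave an unadjusted p = 0.153 and an adjusted p = 0.99. The 2-sided exact permutation test over the 35 splits of the mice gave p = 0.229, where 0.0286 was the smallest possible. Without PrlR+/- 1 the difference was 0.333 (limma, adjusted p = 0.914), and without PrlR+/- 4 it was 0.150.

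**Figure D2:**
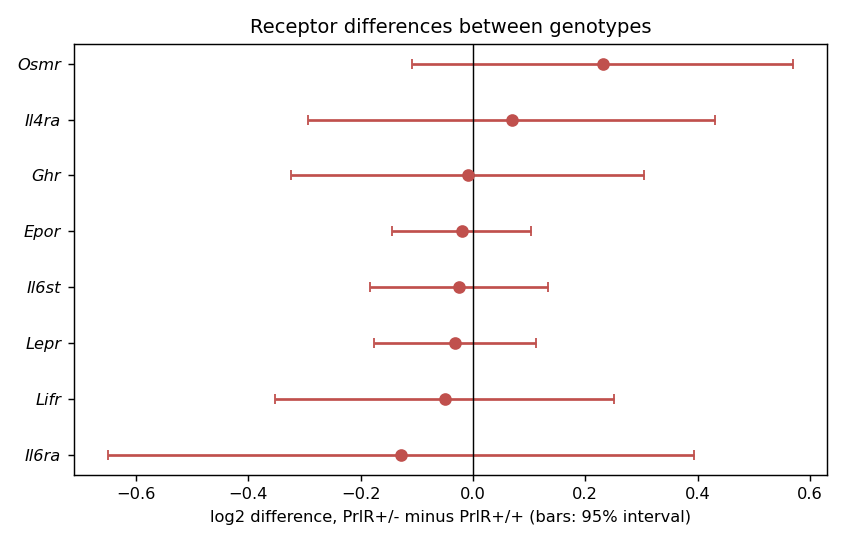
Log2 difference between PrlR+/- and PrlR+/+ islets for each receptor (points) with its 95% interval from limma (bars). Every interval includes 0; Epor, Lepr and Il6st have the narrowest and Il6ra the widest.

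For 7 of the 8 receptors the SD between mice of a genotype was larger than the difference between genotypes; for Osmr it was 0.217 against a difference of 0.231. Some receptors varied together. Among the 28 pairs of receptors, the closest relation over the 7 mice was between Ghr and Il6ra, with Pearson's r = 0.928 (exact permutation p = 0.00159, adjusted p = 0.0445 over the 28 pairs) and Spearman's rho = 0.955 (exact permutation p = 0.00317, adjusted p = 0.0888). The relation passed by r and not by rho. Without PrlR+/- 2 and PrlR+/+ 1, the mice farthest from the median of Ghr, r was 0.877, and with the genotype means removed it was 0.945. PrlR+/- 3 and PrlR+/+ 2 were high for both genes, and PrlR+/- 2 was the lowest for both. None of the 27 other pairs passed. Lepr and Lifr were next by r, at 0.783 (exact permutation p = 0.0762, adjusted p = 0.356), but with a rho of 0.330 (exact permutation p = 0.481, adjusted p = 0.792) and an r of 0.139 without PrlR+/+ 1 and PrlR+/+ 2, so that their relation rested on those mice. Il4ra followed, at r = 0.749 with Il6ra (exact permutation p = 0.0532, adjusted p = 0.353) and 0.741 with Ghr (exact permutation p = 0.0563, adjusted p = 0.353).

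**Figure D3:**
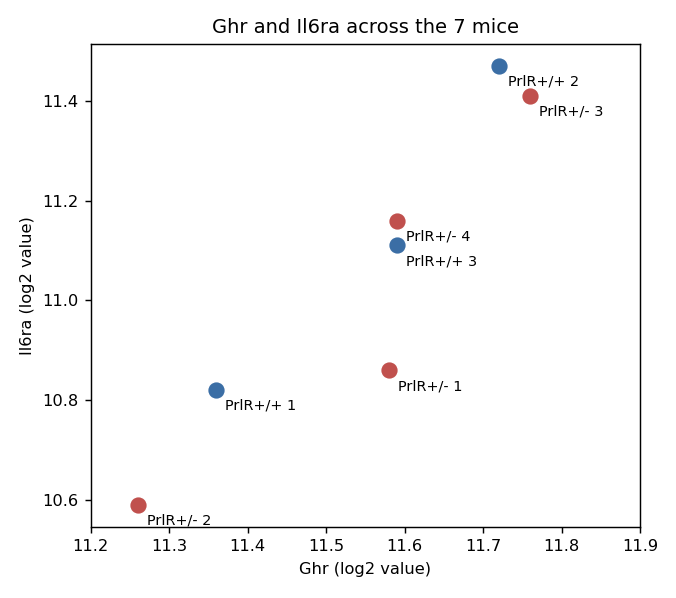
Il6ra against Ghr, both as deposited log2 values, for the 4 PrlR+/- mice (red) and the 3 PrlR+/+ mice (blue). The points rise together in both genotypes, from PrlR+/- 2 at 11.26 and 10.59 to PrlR+/- 3 and PrlR+/+ 2 at the upper end.

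This pattern was not particular to the receptors. Of 3113 genes with a mean above the median gene and an SD over the mice of at least 0.2, 128 correlated with Ghr at r of 0.9 or more over the 7 mice, and Il6ra ranked 72. The genes most like Ghr were Chic2, a membrane-associated protein of vesicles (r = 0.995), Fxr1, an RNA-binding protein (r = 0.987), and Ptk2b, a calcium-responsive tyrosine kinase (r = 0.985). Chic2 read 10.92, 10.43, 11.27 and 10.90 in PrlR+/- and 10.56, 11.16 and 10.92 in PrlR+/+ mice, so that it was lowest in PrlR+/- 2, as Ghr was. With 7 mice and so many genes, high correlations are common, and these are given as a description. Markers of other cells also varied in PrlR+/- 2, where the mean of 10 endothelial markers was 9.35 against 9.03 to 9.12 in the other PrlR+/- mice and 9.05 to 9.13 in PrlR+/+ mice, and the mean of 4 duct markers 7.16 against 6.70 to 6.74 and 6.58 to 6.75. Acinar, stellate cell and fibroblast, macrophage and myeloid, and delta cell markers were also highest of the 7 mice there, at 13.24, 7.74, 7.41 and 11.19. PrlR+/+ 1 was the next lowest for both Ghr and Il6ra. Its endothelial and duct markers averaged 9.09 and 6.64, within the range of the other PrlR+/+ mice. The part of these cells in the low Ghr and Il6ra of PrlR+/- 2 was not tested.

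Levels of the gp130 branch were set beside those of its transcription factor. Stat3 read 10.82, 10.76, 10.82 and 11.36 in PrlR+/- against 10.77, 11.15 and 10.68 in PrlR+/+ mice, so PrlR+/- 4 and PrlR+/+ 2 were the highest in their groups. These were also the mice with the lowest Il6st in each group, at 10.48 and 10.58. Bcl3, a STAT3-induced nuclear cofactor of NF-kB, was 9.06 in PrlR+/- 4 against 7.74 to 8.14 in the other PrlR+/- mice, and 8.30 in PrlR+/+ 2 against 7.94 and 8.05. The feedback inhibitor Socs3, which binds to gp130, was 8.29 in PrlR+/- 4 and 8.76 in PrlR+/+ 2, against 7.71 to 8.04 in the other PrlR+/- mice and 8.03 and 8.07 in the other PrlR+/+ mice. Il4ra was likewise highest of its group in these mice, at 8.08 and 8.19, and so were Osmr, at 7.74 and 7.45, and Lifr, at 10.01 and 10.27. The list of STAT3-induced genes was also averaged without its members Osmr and Il4ra. The 11 genes left include Socs3 and Bcl3, so their mean is not separate from the values above. It was 7.58 in PrlR+/- 4, against 7.06 to 7.09 in the other PrlR+/- mice. In PrlR+/+ 2 it was 7.60, against 6.69 and 7.32 in the other PrlR+/+ mice. Farthest above the other PrlR+/+ mice in PrlR+/+ 2 were Reg3b, at 11.84 against 8.41 and 9.51, and Reg3g, at 8.46 against 6.21 and 6.86. In PrlR+/- 4 Reg3g was 8.17 against 7.12 to 7.98 in the other PrlR+/- mice, but Reg3b was 9.90 against 9.84 to 10.56. Reg3b thus stood out only in PrlR+/+ 2. This is a difference between mice, present in both genotypes, and it was noticed in the data. Between genotypes, 10 of the 13 listed genes were higher and 0 passed, with a median of 0.108, and the mean of the list was 0.019. By p, Junb, an immediate early transcription factor, led with -0.48 ± 0.24 (SE), followed by Osmr. Markers of several cell types also stood at the edge of their group in PrlR+/- 4 and PrlR+/+ 2. The lists with the lowest mean of the group in both mice were delta cell markers, at 10.72 and 10.66 against 11.12 to 11.19 in the other PrlR+/- and 11.02 to 11.12 in the other PrlR+/+ mice, beta cell markers, at 11.92 and 12.05 against 12.12 to 12.16 and 12.17 to 12.21, and macrophage and myeloid markers, at 7.26 and 7.07 against 7.30 to 7.41 and 7.33 to 7.37. The lists with the highest mean of the group in both mice were adipocyte markers, at 6.59 and 6.46 against 6.08 to 6.37 and 6.09 to 6.18, red blood cell markers, at 6.54 and 6.38 against 6.30 to 6.36 and 6.26 to 6.33, lymphocyte markers, at 5.91 and 5.63 against 5.62 to 5.66 and 5.54 to 5.61, and Schwann cell and neuron markers, at 6.93 and 6.72 against 6.70 to 6.85 and 6.61 to 6.68. In median percentile, adipocyte markers lay at 38.0, red blood cell at 36.8, lymphocyte at 27.8 and Schwann cell and neuron markers at 37.8. Delta cell markers lay at 98.8, beta cell markers at 99.2 and macrophage and myeloid markers at 48.0. The lists with the highest mean were thus dimmer than those with the lowest. The part of signal level or of these cells in the gp130 branch values was not tested.

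**Figure D4:**
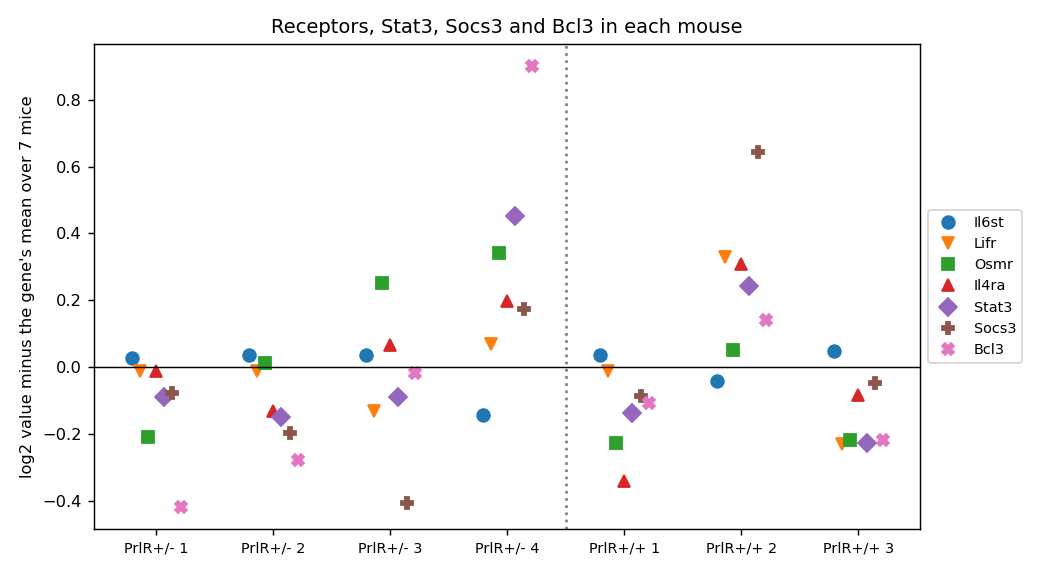
Log2 value minus the gene's own mean over the 7 mice for the receptors Il6st, Lifr, Osmr and Il4ra and for Stat3, Socs3 and Bcl3, with PrlR+/- mice left of the dotted line and PrlR+/+ mice right of it. In PrlR+/- 4 and PrlR+/+ 2 the Il6st point is below 0 and the other points are above it.

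The kinases and STAT factors on the receptors' inner side did not pass either. Of 9 measured, 6 were higher and 3 lower, with a median difference of 0.072. Jak2, the kinase bound by Prlr, Ghr, Epor and Lepr, read 8.50, 8.31, 8.47 and 8.15 in PrlR+/- against 8.44, 8.63 and 8.58 in PrlR+/+ mice (-0.19 ± 0.10, SE). Stat5a and Stat5b, the main factors of Prlr, differed by 0.08 ± 0.08 and 0.09 ± 0.07 (SE), and Stat3 by 0.07 ± 0.18. Among 9 genes known to be induced by STAT5, 8 were lower and 0 passed, with a median of -0.150. Socs2, a STAT5-induced inhibitor known to limit Ghr signalling, was 11.56, 11.21, 11.38 and 11.38 in PrlR+/- against 11.66, 11.63 and 11.71 in PrlR+/+ mice, without overlap (-0.28 ± 0.09, SE, adjusted p = 0.99 by limma). Cish, which is induced by the same factor, differed by -0.46 ± 0.15. Ghr, whose hormone also acts through STAT5, differed by -0.01 ± 0.13 (SE), and Prlr was not measured. Which receptor the STAT5-induced genes followed was not tested. The STAT5-induced list was compiled with earlier results of these samples known, so its direction is not independent evidence. Of 20 feedback inhibitors and adaptors, 10 were higher and 10 lower, with a median of 0.000, and of 11 genes of receptor trafficking and shedding 8 were lower, with a median of -0.083 and the smallest p for Erap1 (-0.17 ± 0.10, SE), an aminopeptidase that promotes shedding of cytokine receptors.

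Other cytokine receptors showed the same absence of calls. Of 23 further class I receptor genes, 13 were higher and 10 lower, 0 passed and the median was 0.015. The groups did not overlap for 1 of the 23, beside 2.24% of all genes, so this count is near the background. It was Il12rb2 of the interleukin 12 receptor, a dim probe set at percentile 15.4. Its PrlR+/- mean was 5.05 ± 0.14 (SD, n = 4) and its PrlR+/+ mean 4.87 ± 0.04 (SD, n = 3). Its partner Il12rb1 differed by 0.17 ± 0.10 (SE). Cntfr, a receptor of the gp130 group for ciliary neurotrophic factor, gave a signal at percentile 97.5, with 11.49 in PrlR+/- and 11.34 in PrlR+/+ islets (0.14 ± 0.19, SE). Csf2rb, the shared chain for interleukins 3 and 5 and GM-CSF, was 8.04 in PrlR+/- 4 against 6.18 to 6.28 in the other PrlR+/- mice and 6.37 to 6.87 in PrlR+/+ mice. Cntfr and Csf2rb were named after their values were seen. Of 11 class II receptor genes, a related family that binds interferons and interleukins 10 and 22, 6 were higher and 5 lower, 0 passed and the median was 0.005. The smallest p values were those of Il20rb (0.17 ± 0.09, SE) and Il10rb (0.21 ± 0.11).

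**Figure D5:**
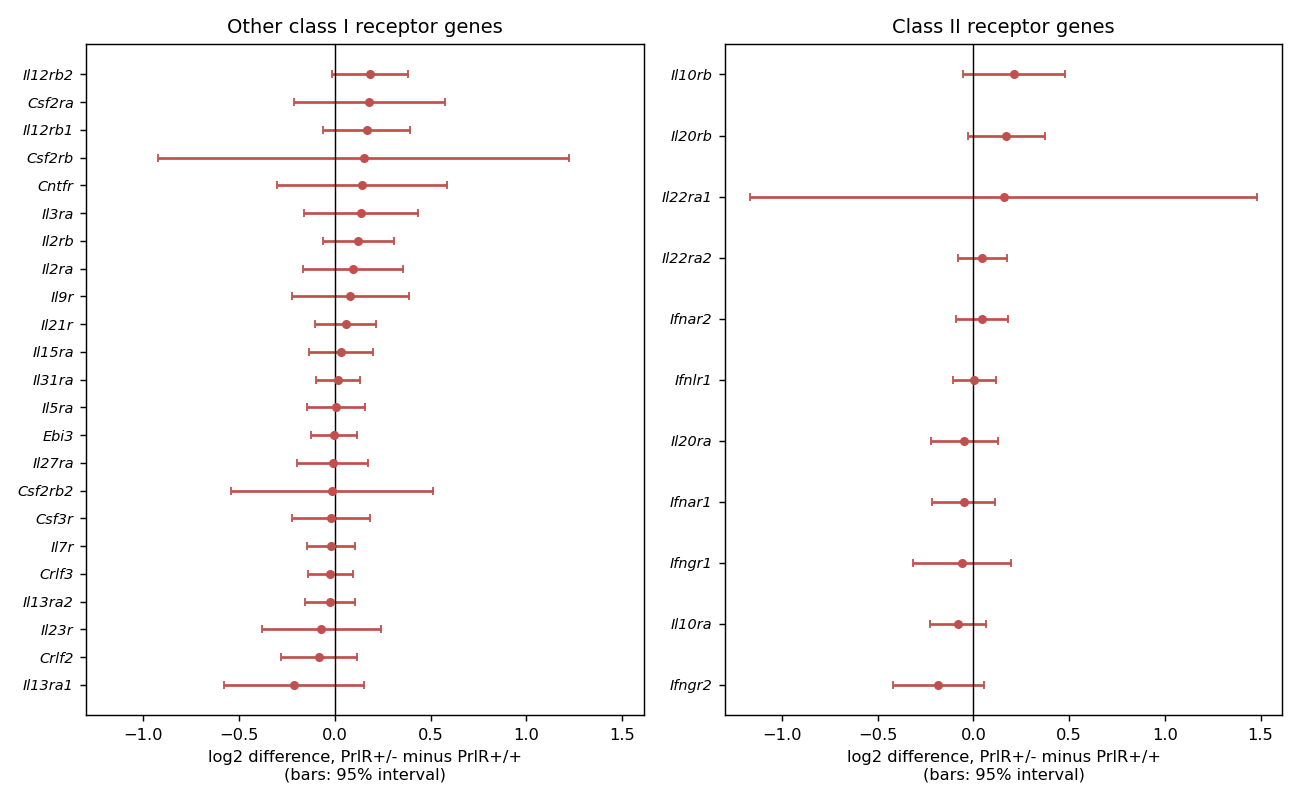
Log2 differences between PrlR+/- and PrlR+/+ islets for 23 other class I receptor genes (left) and 11 class II receptor genes (right), each with its 95% interval from limma. All intervals include 0.

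Ligands of these receptors were dim in the islets themselves. Of 17 measured, the signals lay between percentiles 1.7 and 47.4. Prl itself was at 4.75 in PrlR+/- and 4.70 in PrlR+/+ islets and Gh at 5.69 and 5.67, and 16 of 17 ligands had slightly higher means, with a median difference of 0.048 and 0 calls. Ctf1, or cardiotrophin 1, was the brightest (0.09 ± 0.07, SE), and Il6 was the dimmest, at 3.24 in every PrlR+/- mouse. The list mean was 5.36 in PrlR+/- 4 against 5.10 to 5.24 in the other PrlR+/- mice and 5.15 to 5.21 in PrlR+/+ mice.

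Ghr, Osmr, Lifr and Prlr lie on chromosome 15, in that order in the RefSeq gene table, with 35 protein-coding genes between Ghr and Prlr, Osmr and Lifr among them. Of these 35, 33 were measured, 17 were higher and 16 lower in PrlR+/- islets, 0 passed, the groups overlapped for all of them, and the median difference was 0.005. Il7r, the interleukin 7 receptor close to Prlr, was at 5.10 in PrlR+/- and 5.12 in PrlR+/+ islets (-0.02 ± 0.05, SE). The stretch was chosen for its position after the data were seen.

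Markers of the cells that could carry these receptors were read from the same fit, and none passed. Beta cell markers lay at percentiles of 90.0 and above, and acinar markers at 97.6 and above, so both gave high signals in these islet preparations. Between genotypes the median differences were -0.041 for 9 beta cell, 0.058 for 4 alpha cell, 0.111 for 3 delta cell, 0.103 for 7 acinar, 0.133 for 4 duct, 0.050 for 10 endothelial, 0.029 for 12 macrophage and myeloid, 0.108 for 10 lymphocyte, 0.091 for 8 stellate cell and fibroblast, 0.156 for 5 Schwann cell and neuron, 0.046 for 3 red blood cell and 0.081 for 5 adipocyte markers. The groups did not overlap for 5 of these markers, a larger share than the 2.24% of all genes, and all 5 were higher in PrlR+/-. They were 1 each of the 12 macrophage and myeloid, 8 stellate cell and fibroblast, 10 endothelial, 4 duct and 10 lymphocyte markers. The other marker lists held 0, and the share was not tested. The 5 were Lyz2 of macrophages (0.64 ± 0.10, SE), Thy1 of fibroblasts, T cells and neurons (0.34 ± 0.09), Emcn of endothelium (0.26 ± 0.09), Sox9 of ducts (0.21 ± 0.12) and Cd3d of T cells (0.18 ± 0.07), each at an adjusted p = 0.99 by limma. Lyz2 stood at 8.80, 8.72, 8.49 and 8.79 in PrlR+/- mice, against 8.19, 8.05 and 7.93 in PrlR+/+ mice, and its close relative Lyz1 may share its probes. Lymphocyte markers, beside which Il4ra may be read, were dim, at percentiles of 7.0 to 38.5. They averaged 5.62 to 5.91 in PrlR+/- and 5.54 to 5.63 in PrlR+/+ mice, with the highest value in PrlR+/- 4. All 10 had higher means in PrlR+/-, beside 55.7% of all genes. In each genotype the same mouse, PrlR+/- 4 or PrlR+/+ 2, was highest for both, but Il4ra was highest of all in PrlR+/+ 2. Stellate cell and fibroblast markers, which are known to accompany Osmr in many tissues, averaged 7.30 to 7.74 in PrlR+/- and 7.29 to 7.55 in PrlR+/+ mice. Among PrlR+/- mice they were highest in PrlR+/- 2 and Osmr in PrlR+/- 4. Among PrlR+/+ mice both were highest in PrlR+/+ 2, at 7.55 and 7.45. The part of these cells in the receptor values was not tested.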

How the data were processed

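Transcripts of islets from 7 pregnant mice were measured with 1 array per mouse. The authors deposited normalized log2 values with 2 decimals for 35556 probe sets, between 1.73 and 13.97, and this range showed the scale to be log2. The submitters' processing notes name Affymetrix Expression Console 1.2.0.20, with the normalization not given in the sources used here. Scan dates and detection calls were not used, so batch was not tested. Arrays have no read depth; their number limits the precision, with a median standard error of 0.0977. Per the labels, 250 ng of RNA with an integrity number above 8.5 was labelled per mouse.

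Of the probe sets, 21789 had 1 gene symbol in the platform annotation, 1621 several and 12146 none. The brightest probe set stood for each of 999 genes with more than 1, which left 19938 genes. Of the symbols, 21698 were matched to RefSeq (GRCm38.p6). Differences, standard errors and 95% intervals come from limma 3.58.1 (lmFit and eBayes, R 4.3.3) over all genes, 2-sided, with Benjamini-Hochberg adjustment and a threshold of 0.05; the steps were tested on simulated data. Correlations used all 5040 orders of the mice. Tables were made with pandas 2.3.3.

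The receptors, the 21 gene lists and the tests were chosen with earlier results of these data known. The lists were other class I and class II receptors, ligands, kinases and STAT factors, feedback inhibitors and adaptors, trafficking and shedding, genes induced by STAT5, STAT3 or STAT6, and markers of 12 cell types. The named genes are the 10 receptors, the members of each list that passed or else the 2 of smallest unadjusted p, 8 genes chosen by name, and the 3 genes most like Ghr; others were named after their values were seen. Lists are described by counts and medians, without a set test. Alternatives were another variance model, array weights, quantile normalization, median centring, a filter on dim genes, other uses of the probe sets, a replicate block and leaving out each mouse. The p-values measure the spread between these mice, whose litters are not given.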

Additional observations from a re-analysis of the deposited data

Results flagged for a closer look

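In PrlR+/- mice, 7 of 54 named genes had 1 mouse far from the other 3, and 5 of the 7 concern PrlR+/- 4. Csf2rb, which was named after its values were seen, was not among the 54. It read 8.04 in PrlR+/- 4 against 6.18 to 6.28 in the other PrlR+/- mice. For independent, normally distributed values, chance alone flags about 1 gene in 20. Some named genes vary together and some values are tied, so the count cannot be held against that rate. Il6st read 10.48 in PrlR+/- 4 against 10.65 to 10.66 in the others, and Stat3 read 11.36 against 10.76 to 10.82. Lepr read 5.40 in PrlR+/- 4 against 5.41 in the others, a step of the last decimal deposited. The dim probe sets of Cd3d and Mgl2 read 5.13 and 5.41 in PrlR+/- 4, against 4.96 and 5.16 to 5.17. In PrlR+/- 2, Sox9 read 8.20 against 7.73 to 7.76 and Muc1 read 10.12 against 8.73 to 8.95; both mark duct cells.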

How the results depend on the processing

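Under the 15 alternatives 0 genes and 0 receptors were called in every case, so no count changed; the lowest adjusted p of a receptor was 0.854. Of 118 receptor differences recomputed, 104 kept their sign and 14 did not, 10 of these with a mouse left out. With array weights the difference was 0.022 for Ghr, 0.002 for Lepr and 0.059 for Lifr; the cause was not tested. With the replicate block it was 0.020 for Il6st, and every receptor difference was the same as without PrlR+/- 4, which has no partner in its block and so adds nothing to the difference between genotypes there. With a mouse left out the median of the 8 ranged from -0.069 to 0.056, and the differences ranged from -0.107 to 0.087 for Ghr, -0.068 to 0.022 for Lepr, -0.285 to 0.040 for Il6ra, -0.052 to 0.020 for Il6st, -0.180 to 0.100 for Lifr, 0.150 to 0.333 for Osmr, -0.083 to 0.242 for Il4ra and -0.035 to 0.000 for Epor. The replicate block changed no call: it gave 0 genes, as did the fit without it. Same-numbered mice of both genotypes correlated in their deviations from the group means at 0.090, -0.386 and -0.029. No mouse with a same-numbered partner correlated best with that partner alone. PrlR+/- 1 correlated at 0.090 with both PrlR+/+ 1 and PrlR+/+ 3, and PrlR+/- 2 at 0.398 with PrlR+/+ 1. With so few mice, this cannot show whether same-numbered mice shared a litter or a batch. Osmr kept a positive difference throughout, from 0.133 to 0.252 with all mice. The filter at the 40th percentile removed Lepr and Epor, which gave no value there. Without a measure of signal over background, the dim Lepr and Epor values set no limit on their transcripts.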
